A study of Mus musculus with 9 samples.

Results

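The 9 genes studied here carry, bind, synthesize or sense vitamin A derivatives, and were measured in mouse mammary sphere cultures. They are Stra6, Rbp4, Crabp1, Crabp2, Aldh1a1, Aldh1a2, Aldh1a3, Rarb and Rarg, or 9 of the 12393 genes that the array measures under a symbol of their own. All 12 probe sets whose annotation gives 1 of these symbols and no other were taken, and 2 of the genes, Aldh1a3 and Rarg, have more than 1. The genes were chosen with their intensities in these 9 arrays already known. Their levels and differences are therefore a description, with no p values. How many of them passed the threshold of the fit is given beside the share or number over all probe sets, and nothing is read from it.

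RNA was measured in 3 tumorsphere cultures (TMS), 3 preparations of mammospheres induced to differentiate (diffMMS) and 3 mammosphere preparations (MMS), with 1 MOE430A Gene Chip each. TMS are non-adherent spheres from independent mammary tumors of mice whose Neu transgene is driven by the MMTV promoter (MMTV-Neu [N2O2] in the labels), and no strain is labelled for these arrays. The study calls FVB/N hosts syngeneic for its primary tumor cells. MMS came from glands of virgin female FVB/N mice, for which no transgene is named, and were kept in the stem cell medium used for TMS. For diffMMS, dispersed mammosphere cells of that strain were plated on collagen in medium with serum for 7 days. TMS and MMS were passaged every 7 days and taken at passages 3 to 5. How many mice gave a preparation is not stated, and with serum, attachment and time changed together, their parts in a difference between diffMMS and either sphere culture cannot be told apart. Arrays are named here by their codes, which are 1099A, 1100A and 1101A for TMS, 861A, 862A and 863A for diffMMS, and 858A, 859A and 860A for MMS. The label of 858A carries a suffix R whose meaning is not stated. The codes of TMS lie apart from the others, so that an array run and the tumor origin cannot be told apart.

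Retinol travels in blood bound to the carrier made by Rbp4 and enters cells through the membrane receptor made by Stra6. Inside the cell it is oxidized to retinal, which the retinaldehyde dehydrogenases made by Aldh1a1, Aldh1a2 and Aldh1a3 turn into retinoic acid. Retinoic acid is held in the cytoplasm by the binding proteins made by Crabp1 and Crabp2, acts in the nucleus on receptors such as those made by Rarb and Rarg, and is cleared by Cyp26 enzymes. In the mammary gland the pathway is known for its part in epithelial differentiation, and aldehyde dehydrogenase activity is widely used to enrich stem and progenitor cells.

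The receptors bind DNA with retinoid X receptors, at repeats of a hexamer half-site. Promoter windows of RefSeq (GRCm38.p6), from 250 bases before to 50 after an annotated start, were searched on both strands for 2 half-sites in the same orientation, set 1, 2 or 5 bases apart (DR1, DR2 and DR5). Each half-site could be AGGTCA or its close variant AGTTCA and could also be GGGTCA or its close variant GGTTCA. Of the 9 genes, 7 have at least 1 window, 13 in all, and Crabp2 and Aldh1a3 were not searched. Among these windows only that of Rarb held a match, a DR5. Of the other pathway genes described below 40 have a window, and among them Cyp26a1, which encodes a retinoic acid hydroxylase, held a DR5 and Bco1, a carotene-cleaving enzyme, a DR1. A DR5 match stands in 32 of 32851 windows (0.0974%), a DR2 in 88 (0.268%) and a DR1 in 73 (0.222%). The 100 bases before the start are shown for Rarb and Cyp26a1, because they hold the only DR5 matches among the searched members and pathway genes. Capitals mark the repeat, including its spacer, and each sequence is written on its gene's strand. The Rarb sequence lies at chr14:16575477-16575576 on the minus strand, and that of Cyp26a1 at chr19:37697708-37697807 on the plus strand.
Rarb: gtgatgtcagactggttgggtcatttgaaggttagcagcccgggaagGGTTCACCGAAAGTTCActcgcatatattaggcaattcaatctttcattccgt
Cyp26a1: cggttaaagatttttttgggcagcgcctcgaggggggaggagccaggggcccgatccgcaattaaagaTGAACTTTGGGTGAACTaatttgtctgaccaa
The repeat reads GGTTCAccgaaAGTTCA at Rarb, 5′ to 3′ on the gene's strand, and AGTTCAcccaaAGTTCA at Cyp26a1, on the opposite strand. They share the second half-site. A match says only that these letters are present.

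Values are log2 of the deposited intensity plus 8.67, after quantile normalization, and a difference of 1 is a doubling of that sum. They are compared between cultures for 1 probe set at a time, never between probe sets. Differences are given with the moderated standard error of a limma fit to all 9 arrays, and the word call stands for an adjusted p under 0.05 in that fit. Because the variance is shared by the 3 groups, that error understates the spread of a group that varies more than the others. Of the 12 probe sets, 6 had a mean below the median of all probe sets. These were the probe sets of Rbp4, Aldh1a1, Aldh1a2 and Rarb and 2 of the 3 of Aldh1a3, and no detection calls were used here. In RNA of whole cultures, fewer cells of a type and less RNA per cell cannot be told apart.

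Stra6, the gene of the retinol uptake receptor (mouse chromosome 9, bases 58063793 to 58154004 of GRCm38.p6), was lowest after induced differentiation and highest in tumorspheres. Its log2 intensities were 8.61, 7.97 and 7.84 in TMS, 6.60, 6.44 and 6.50 in diffMMS, and 7.54, 7.77 and 7.47 in MMS. The 3 cultures did not overlap, but TMS array 1099A stood 0.64 above the next TMS array, while 1101A lay only 0.07 above the highest MMS array. The difference was 1.63 ± 0.165 for TMS minus diffMMS and -1.08 ± 0.165 for diffMMS minus MMS, with 0.55 ± 0.165 for TMS minus MMS (n = 3 each). The last of these was 0.31 without array 1099A. Rbp4, the gene of the carrier that Stra6 recognizes (chromosome 19, bases 38116620 to 38125321), had the most similar levels of the 9 genes in the 3 cultures. They were 5.70, 5.71 and 5.38 in TMS, 5.63, 5.62 and 5.67 in diffMMS, and 5.67, 5.69 and 5.70 in MMS. The deposited intensity was 41.0155 in 862A and in every MMS array, so that the levels of these arrays differ only through normalization. Why they share 1 value is not stated. Only array 1101A stood apart, at the low end, and the group means of 5.59, 5.64 and 5.68 differed by less than the SD of 0.190 in TMS.

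Crabp1, which encodes a cytoplasmic carrier of retinoic acid (chromosome 9, bases 54764748 to 54773110), showed the widest difference of the 12 probe sets. Its levels were 12.27, 12.12 and 12.02 in TMS, 8.94, 8.95 and 8.76 in diffMMS, and 12.36, 12.36 and 12.42 in MMS. The highest diffMMS array lay 3.07 below the lowest sphere array, the widest such gap of the 12 probe sets. On the deposited linear scale the means were 4377 in TMS, 434.5 in diffMMS and 5485 in MMS. The difference was -3.50 ± 0.0815 for diffMMS minus MMS, or 11.3-fold lower, and 3.25 ± 0.0815 for TMS minus diffMMS, or 9.54-fold higher. These folds are of the normalized sum of intensity and 8.67, not of the deposited means. TMS lay 0.25 below MMS on average (-0.25 ± 0.0815), without overlap between the arrays.

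Crabp2 encodes the relative of Crabp1 that delivers retinoic acid to nuclear receptors (chromosome 3, bases 87948693 to 87953372), and all 3 cultures were apart. Levels were 8.15, 7.94 and 8.05 in TMS, 6.01, 6.16 and 6.04 in diffMMS, and 7.45, 7.51 and 7.33 in MMS. TMS were above MMS in every array and diffMMS below both. The difference was 1.98 ± 0.0840 for TMS minus diffMMS, -1.36 ± 0.0840 for diffMMS minus MMS and 0.62 ± 0.0840 for TMS minus MMS. Crabp1 and Crabp2 were thus both lowest in diffMMS, while TMS had less of Crabp1 and more of Crabp2 than MMS.

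**Figure D1:**
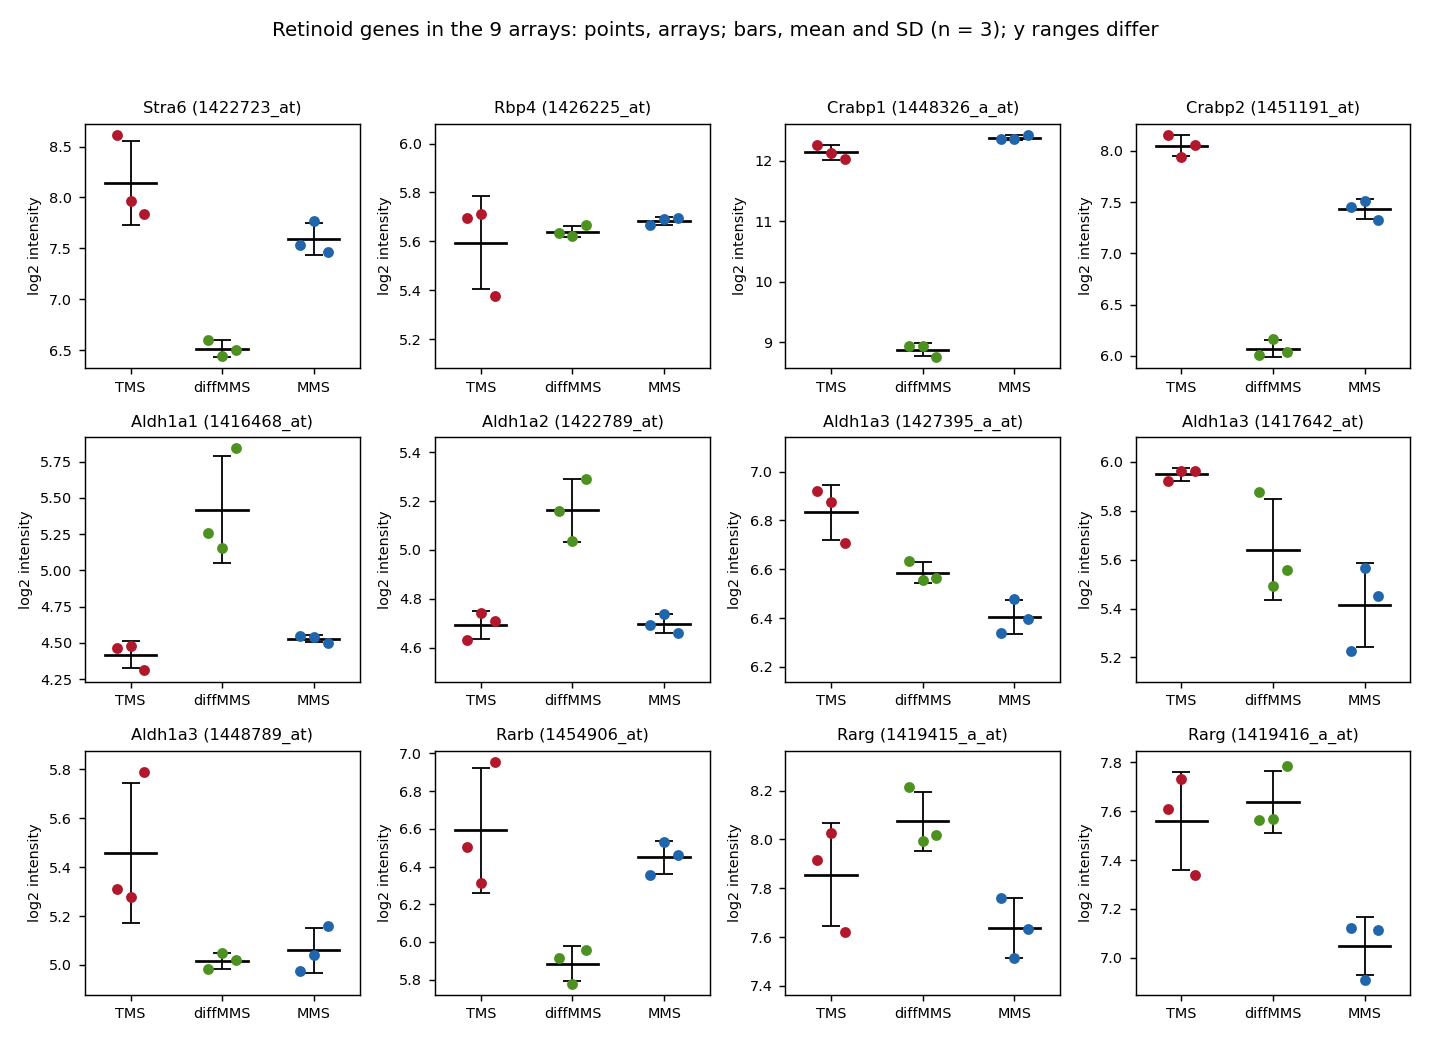
Log2 intensity of the 12 retinoid probe sets in each of the 9 arrays, in tumorspheres (TMS), mammospheres induced to differentiate (diffMMS) and mammospheres (MMS). Points are arrays and bars the mean and SD (n = 3), the y ranges differ, and Crabp1 has diffMMS at 8.76 to 8.95 below all other arrays.

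The 3 retinaldehyde dehydrogenase genes did not run alike. Aldh1a1 (chromosome 19, bases 20492583 to 20643463) and Aldh1a2 (chromosome 9, bases 71215789 to 71296243) were highest in diffMMS, and Aldh1a3 (chromosome 7, bases 66390892 to 66427477) was highest in TMS. Aldh1a1 is a gene whose product is often credited with the aldehyde dehydrogenase activity of stem cell assays. Its levels were 4.47, 4.48 and 4.31 in TMS, 5.26, 5.16 and 5.84 in diffMMS, and 4.55, 4.54 and 4.50 in MMS. DiffMMS arrays lay above the other 6, and 863A stood 0.58 above the next of them. TMS and MMS differed by -0.11 ± 0.134. The difference was 0.89 ± 0.134 for diffMMS minus MMS and -0.999 ± 0.134 for TMS minus diffMMS, or 0.68 and -0.79 without array 863A. The deposited intensities were low, with means of 12.9 in TMS, 36.2 in diffMMS and 14.0 in MMS, so that the added 8.67 makes up much of the values in both sphere cultures. With 1 added in place of 8.67 the difference of diffMMS and MMS was 1.18, and with 32 added it was 0.52.

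Aldh1a2, the main retinoic acid producing enzyme of the early mouse embryo, had levels of 4.63, 4.74 and 4.71 in TMS, 5.16, 5.03 and 5.29 in diffMMS, and 4.69, 4.74 and 4.66 in MMS. DiffMMS again lay above all sphere arrays, whereas TMS and MMS overlapped. The difference was 0.46 ± 0.0624 for diffMMS minus MMS and -0.47 ± 0.0624 for TMS minus diffMMS, with -0.004 for TMS minus MMS. Its intensities were also low, with means of 17.2 in TMS, 28.3 in diffMMS and 16.7 in MMS, and the differences depended on the constant added. With 1 added in place of 8.67 they were 0.62 for diffMMS minus MMS and -0.63 for TMS minus diffMMS, and with 32 added 0.26 and -0.27.

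Aldh1a3 is measured by 3 probe sets, and TMS were above MMS without overlap in each. The brightest, 1427395_a_at, had levels of 6.92, 6.88 and 6.71 in TMS, 6.63, 6.56 and 6.56 in diffMMS, and 6.34, 6.48 and 6.39 in MMS. With it the cultures were ordered TMS, diffMMS, MMS without overlap, though the lowest TMS array and the highest diffMMS array lay only 0.07 apart. TMS minus MMS was 0.43 ± 0.0785 with this probe set, 0.53 ± 0.105 with 1417642_at and 0.40 ± 0.111 with 1448789_at. The place of diffMMS depended on the probe set. DiffMMS minus MMS was 0.18 ± 0.0785 with 1427395_a_at, 0.23 ± 0.105 with 1417642_at, where the groups overlap, and -0.04 ± 0.111 with 1448789_at, where they overlap too. TMS minus diffMMS was 0.25, 0.31 and 0.44 in the same order of probe sets, each without overlap. The value of 0.44 leans on array 1101A, at 5.79 against 5.31 and 5.28 in the other TMS arrays, and was 0.28 without it, while TMS minus MMS was then 0.23.

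Rarb encodes retinoic acid receptor beta, whose promoter window holds the DR5 match shown above, and its gene is a textbook target of retinoic acid (chromosome 14, bases 16430839 to 17082331). Its levels were 6.50, 6.31 and 6.96 in TMS, 5.92, 5.78 and 5.96 in diffMMS, and 6.35, 6.53 and 6.46 in MMS. Every diffMMS array lay below all sphere arrays, while TMS and MMS overlapped, with 1100A the lowest and 1101A the highest of these 6. The difference was -0.56 ± 0.134 for diffMMS minus MMS and 0.71 ± 0.134 for TMS minus diffMMS. TMS minus MMS was 0.14 ± 0.134, and -0.04 without array 1101A.

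Rarg, which encodes retinoic acid receptor gamma (chromosome 15, bases 102234938 to 102257522), ran against Rarb between diffMMS and MMS. With 1419415_a_at its levels were 7.92, 8.03 and 7.62 in TMS, 8.21, 7.99 and 8.02 in diffMMS, and 7.76, 7.51 and 7.64 in MMS. DiffMMS lay above MMS without overlap, and TMS overlapped both. With 1419416_a_at they were 7.61, 7.73 and 7.34 in TMS, 7.56, 7.57 and 7.79 in diffMMS, and 7.12, 6.91 and 7.11 in MMS, so that MMS were below all other arrays. DiffMMS minus MMS was 0.44 ± 0.111 and 0.59 ± 0.110 with these probe sets, TMS minus MMS 0.22 ± 0.111 and 0.51 ± 0.110, and TMS minus diffMMS -0.22 ± 0.111 and -0.08 ± 0.110. Both probe sets were lowest in 1101A among TMS, the array with the highest Rarb level of all 9.

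**Figure D2:**
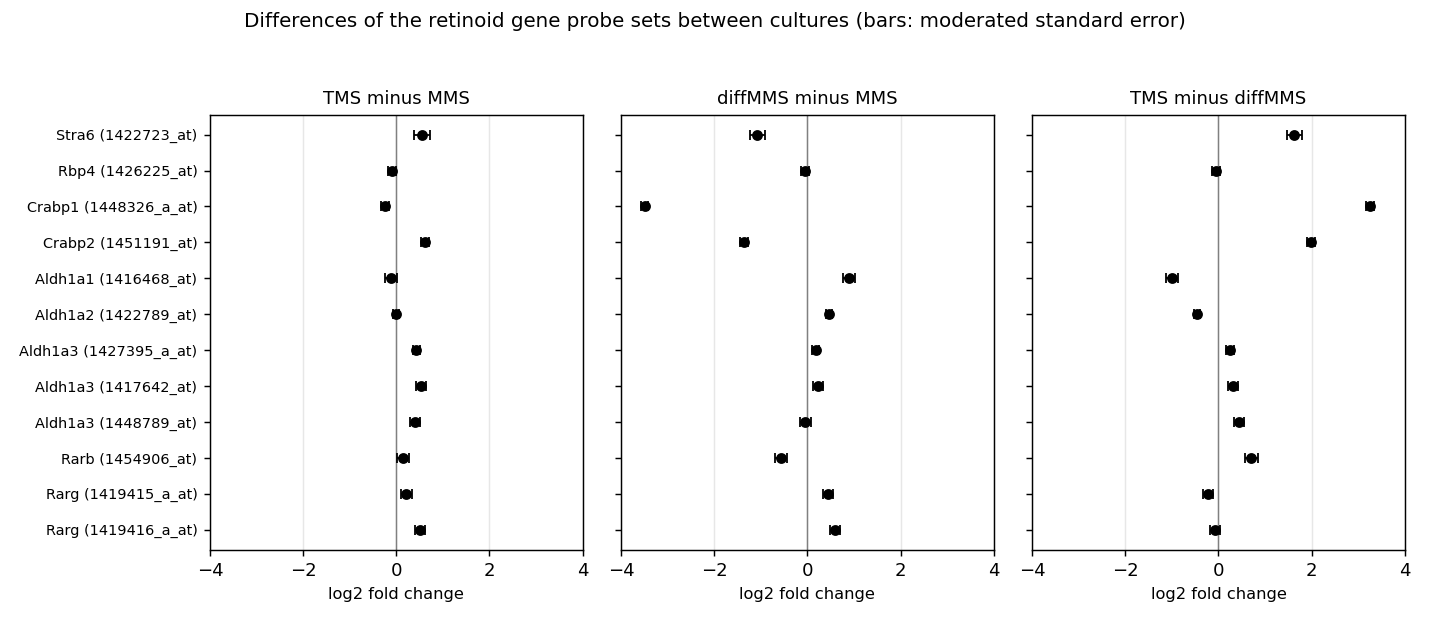
Log2 fold change of each of the 12 retinoid probe sets for TMS minus MMS, diffMMS minus MMS and TMS minus diffMMS, with bars for the moderated standard error. Crabp1, Crabp2, Stra6 and Rarb lie on opposite sides of 0 in the middle and right panels from Aldh1a1 and Aldh1a2, and Rbp4 lies near 0 in each.

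By order of level, TMS stood first for Stra6, Crabp2, all 3 Aldh1a3 probe sets and, by a mean difference of 0.14 over MMS with overlapping arrays, Rarb, and diffMMS for Aldh1a1, Aldh1a2 and Rarg. MMS stood first for Crabp1 and, by a mean difference of only 0.04 over diffMMS, for Rbp4. That order of Rbp4 came from normalization, as its deposited means were 41.0 in MMS and 42.6 in diffMMS. TMS and MMS overlapped for Aldh1a2, Rbp4, Rarb and Rarg probe set 1419415_a_at, and TMS and diffMMS for both Rarg probe sets and Rbp4. Of the 12 probe sets, 6 were called between TMS and MMS, all higher in TMS, where 14.3% of all probe sets were called. Between diffMMS and MMS 8 were called, 4 higher and 4 lower, beside 33.1% of all probe sets, and that of Rarg probe set 1419415_a_at was lost without 859A. Between TMS and diffMMS 8 were called, 6 higher and 2 lower, beside 23.7%. The call of Aldh1a3 probe set 1427395_a_at was lost without any 1 of 7 arrays, while 1417642_at was called without 858A or 861A. The genes were chosen on these contrasts, so that these counts support nothing. The median difference of the 12 probe sets was 0.31 for TMS minus MMS, 0.07 for diffMMS minus MMS and 0.28 for TMS minus diffMMS, beside -0.001, 0.03 and -0.02 over all probe sets. These medians rest on the same choice of genes and support nothing either.

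The labels name mammary cultures, and the study uses them as models of epithelial cells. Of the defining epithelial markers, Krt8 and Epcam were higher in TMS than in either other culture, and neither passed between diffMMS and MMS. Krt8, a keratin of luminal cells, averaged 10.55 in TMS, 7.26 in diffMMS and 7.30 in MMS, and Epcam, an epithelial adhesion molecule, 9.87, 6.07 and 6.31 in the same order of cultures. Over all genes, 6.22% were called higher and 7.14% lower in TMS than in MMS, 17.9% higher and 16.2% lower in diffMMS than in MMS, and 12.3% higher and 12.6% lower in TMS than in diffMMS. Of 12 luminal markers, 8 were higher and 0 lower in TMS than in MMS, and 9 were higher and 0 lower in TMS than in diffMMS. Between diffMMS and MMS 2 were higher and 0 lower, Krt19 by 0.39 and Cldn3 by 0.57, but 0 or 1 were higher without 861A, 863A or any 1 MMS array, and 1 or 2 markers were lower without any 1 TMS array. The median of the list ran from 7.07 to 7.45 over TMS arrays, 5.86 to 5.93 over diffMMS arrays and 5.87 to 6.01 over MMS arrays. Fibroblast markers, 10 in all, had array medians of 10.5 to 11.4 in TMS, 10.3 to 10.5 in diffMMS and 11.1 to 11.3 in MMS, with 4 higher and 4 lower in diffMMS than in MMS, 1 higher and 2 lower in TMS than in MMS, and 4 higher and 4 lower in TMS than in diffMMS. The last of these counts were 2 and 3 without 863A. Of 10 basal and smooth muscle markers, 6 were higher and 0 lower in diffMMS than in MMS, among them Acta2, a smooth muscle actin, by 2.59 (adjusted p = 1.7e-07 from limma). In TMS against diffMMS 1 was higher and 6 were lower, and between TMS and MMS 0 passed in limma, with 3 at an unadjusted p under 0.05, and 1 or 2 were higher without 861A, 862A, 1099A or 1101A. The list's array medians were 6.34 to 6.56 in TMS, 6.54 to 6.74 in diffMMS and 6.14 to 6.23 in MMS. Of 9 macrophage markers, 4 were higher and 0 lower in TMS than in MMS, 3 were higher and 1 lower in diffMMS than in MMS, and 3 were higher and 0 lower in TMS than in diffMMS. The first count was 2 without 859A, 860A or 1100A. Array medians of the list were 6.25 to 6.81 in TMS, 5.68 to 6.10 in diffMMS and 6.09 to 6.30 in MMS. Of 7 adipocyte markers, 3 were higher in diffMMS than in MMS, 2 lower in TMS than in MMS and 3 lower in TMS than in diffMMS (medians of 5.62 to 5.69 in TMS, 5.57 to 5.70 in diffMMS and 5.74 to 5.78 in MMS), and of 7 endothelial markers 4 were lower in TMS than in MMS, 1 in diffMMS than in MMS (0 without 861A, 859A or 860A and 2 without 858A) and 3 in TMS than in diffMMS (medians of 4.99 to 5.16 in TMS, 5.32 to 5.43 in diffMMS and 5.51 to 5.74 in MMS). The part of cell types in the retinoid differences was not tested. The matrix proteoglycan gene Lum, a fibroblast marker, had a pattern close to that of Crabp1, with 12.44, 12.25 and 12.20 in TMS, 10.66, 10.54 and 10.64 in diffMMS, and 12.38, 12.50 and 12.50 in MMS. Lum is 1 of the 4 fibroblast markers that were lower in diffMMS than in MMS. The 4 higher ones were Col1a1 (0.87), Col3a1 (0.43), Pdgfra (1.04) and Thy1 (1.42), so that the list as a whole did not follow Crabp1.

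For each of the 9 genes, the genes whose brightest probe set tracked it most closely were sought among all others. The measure was Pearson's r over the 9 arrays, which fall into 3 groups of 3, so that r mostly reflects the group means and serves as a description. Closest to Stra6 were Arrb1, Notch3 and Nes (r = 0.989, 0.979 and 0.972). Closest to Crabp1 were Lum, Apcdd1 and Arhgdib (0.997, 0.996 and 0.995), and to Crabp2 B4galnt1, Crip2 and Tm4sf1 (0.984, 0.983 and 0.982). Crebrf stood among the 3 closest to both Aldh1a1 and Aldh1a2 (0.984 and 0.975), with Mndal and Pigyl beside Aldh1a1 (0.981 and 0.978) and P3h3 and Igfbp3 beside Aldh1a2 (0.980 and 0.973). Aldh1a3 was tracked by Rreb1, Nipsnap1 and Myo18a (0.974, 0.969 and 0.966), and Rarg by Kif21b, Fxyd5 and Ddr1 (0.986, 0.979 and 0.978). Rarb was tracked most closely by Bhlhe40, which is itself in the list of retinoic acid responsive genes (0.975), then by Crmp1 and Rab20 (0.971 and 0.969). For Rbp4, whose cultures hardly differed and whose deposited intensity was the same in 862A and all MMS arrays, the values were 0.952 for Trim41, 0.931 for Hoxc4 and 0.929 for Clp1.

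Around these 9 genes, 46 of 57 other genes of the pathway were measured under a symbol of their own, each read from its probe set with the highest mean intensity. The remaining listed genes were not analysed here. The lists were chosen with earlier results of these data known, so that their counts and adjusted p values serve as a description. Of the 46 genes, 3 rose and 4 fell in TMS against MMS, beside 6.22% and 7.14% of all genes. In diffMMS against MMS 19 rose and 5 fell, beside 17.9% and 16.2% of all genes. In TMS against diffMMS 2 were higher and 8 lower, beside 12.3% and 12.6%. The median difference of the 46 genes was 0.03, 0.14 and -0.07 in these comparisons. Without array 858A, 859A or 860A the genes called between TMS and MMS were 3, 4 and 4, and without 859A or 860A those called between diffMMS and MMS were 13 and 14.

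**Figure D3:**
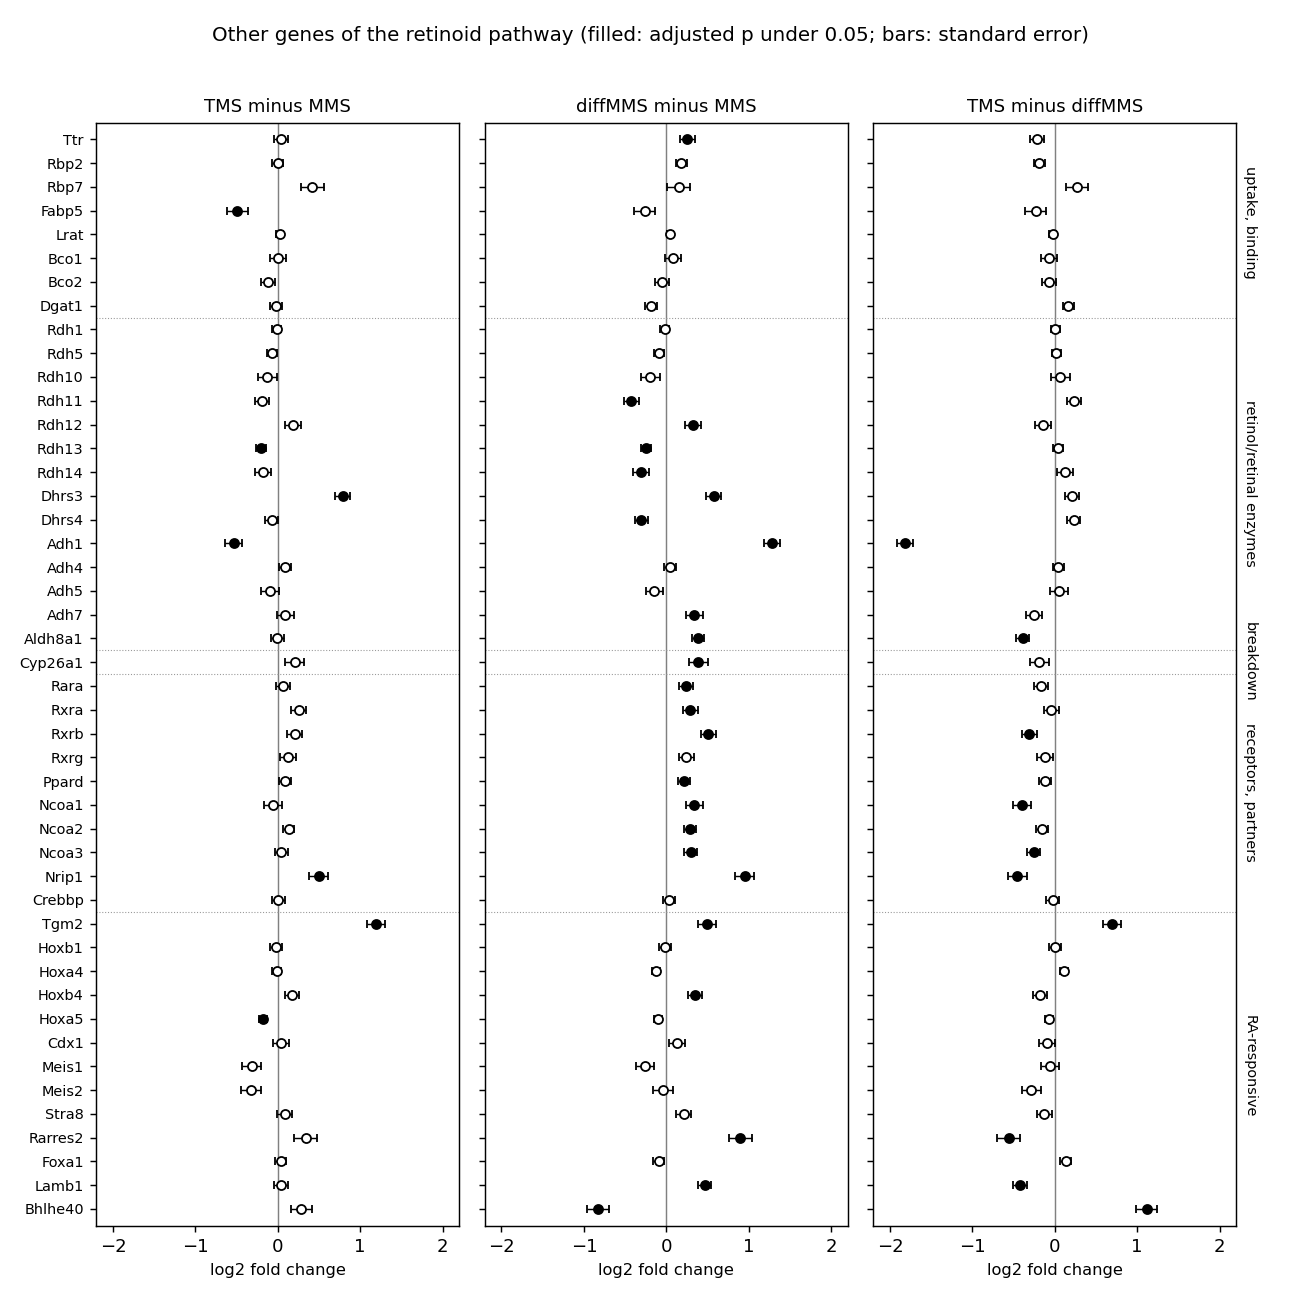
Log2 fold change of 46 other genes of the retinoid pathway for TMS minus MMS, diffMMS minus MMS and TMS minus diffMMS, by role, with bars for the standard error and filled points for an adjusted p under 0.05. The receptors and their partners lie at or right of 0 for diffMMS minus MMS, with 8 of 10 filled, and Adh1 lies farthest left for TMS minus diffMMS, at -1.82.

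Of the 10 nuclear receptors and coregulators measured, 8 were higher in diffMMS than in MMS and none was lower, with a median difference of 0.29. That count rested on single arrays, and was 3 without 859A, 4 without 860A and 4 without 863A. Nrip1, a corepressor bound by retinoic acid receptors, was 0.95 higher (standard error 0.118, adjusted p = 8.4e-05 from limma), and Rxrb, an obligate partner of the receptors, 0.51 higher (adjusted p = 0.00126). Rxra and Rara, which encode another such partner and retinoic acid receptor alpha, were 0.29 and 0.23 higher (adjusted p = 0.0276 and 0.0498). Those 2 calls were lost when 861A, 863A, 859A or 860A was left out, and that of Rara also without 1099A or 1100A, with adjusted p from 0.0528 to 0.194, and both were lost with arrays centred on their median. Ppard, a receptor of fatty acids, was 0.21 higher and lost its call without 6 of the 9 arrays, and the coactivators Ncoa1 and Ncoa3, 0.34 and 0.30 higher, lost theirs without 4 and 2 arrays. Ppard and Ncoa3 were named after their values were seen. A further Rxra probe set gave 0.12 (adjusted p = 0.249). In TMS against MMS 1 of the 10 was higher, Nrip1 by 0.49 (adjusted p = 0.0157), a call lost without 858A, 859A or 1100A (0.40 to 0.48). In TMS against diffMMS 4 were lower and none was higher, but 1 was lower without 1100A, and 2 without 861A, 862A, 863A or 1099A. Rxrb was -0.31 and lost its call without 861A, 1099A or 1100A, and Ncoa3 was -0.26 and lost it without 6 of the 9 arrays. The other 2 were Nrip1 at -0.46 (adjusted p = 0.0150, or 0.0532 when 862A was left out) and the coactivator Ncoa1 at -0.40 (adjusted p = 0.0165, but 0.0508 to 0.0709 when 862A, 863A or 1100A was left out). Nrip1 had 7.28, 7.73 and 7.59 in TMS, 7.92, 8.05 and 7.99 in diffMMS, and 7.02, 6.87 and 7.23 in MMS, so that the 3 cultures did not overlap. Its other probe set gave 0.41 for diffMMS minus MMS (adjusted p = 0.0429) but 0.01 for TMS minus diffMMS. Of the receptors among the 9 genes, Rarg was higher and Rarb lower in diffMMS than in MMS, as given above.

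Among 14 enzymes of retinol and retinal metabolism, 5 were higher and 4 lower in diffMMS than in MMS, 1 was higher and 2 were lower in TMS than in MMS, and 2 were lower in TMS than in diffMMS. Without 859A or 860A the counts for diffMMS against MMS were 3 higher and 2 lower. The higher enzymes include Rdh12 and Adh7, named after their values were seen, at 0.32 and 0.34, but their other probe sets gave -0.02 and 0.09. Adh1, an alcohol dehydrogenase that oxidizes retinol, moved most. Its levels were 6.32, 6.52 and 6.39 in TMS, 8.44, 8.04 and 8.20 in diffMMS, and 6.95, 6.96 and 6.91 in MMS. It rose by 1.29 in diffMMS against MMS (standard error 0.0999, adjusted p = 1.7e-06), with -1.82 for TMS minus diffMMS (adjusted p = 9.4e-08) and -0.54 for TMS minus MMS (adjusted p = 0.00406). Like Aldh1a1 and Aldh1a2 and unlike Aldh1a3, it was highest in diffMMS. Dhrs3, which reduces retinal back to retinol, had 8.50, 8.50 and 8.36 in TMS, 8.32, 8.21 and 8.20 in diffMMS, and 7.49, 7.69 and 7.82 in MMS, so that MMS lay below all other arrays. It rose by 0.78 in TMS (adjusted p = 1.9e-04) and by 0.58 in diffMMS (adjusted p = 5.0e-04), each against MMS. Rdh11 and Rdh14, retinal reductases, were lower in diffMMS than in MMS (-0.42 and -0.31, adjusted p = 0.00314 and 0.0288). Leaving out 862A, 863A, 859A or 860A ended the call of Rdh14, at -0.31 to -0.24, and its other probe set gave -0.09. Rdh13 was slightly lower in TMS than in MMS (-0.21, adjusted p = 0.0416), a call lost without any array but 861A or 863A (-0.23 to -0.17). Aldh8a1, a dehydrogenase of 9-cis-retinal, was -0.39 in TMS against diffMMS (adjusted p = 0.00291), while its other probe set gave -0.07. Rdh10, which makes the first step of retinoic acid synthesis in the embryo, passed no comparison, with -0.13 for TMS minus MMS, -0.20 for diffMMS minus MMS and 0.07 for TMS minus diffMMS. Without array 861A its second value was -0.33 (adjusted p = 0.0219).

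Of 8 genes of retinol transport, storage and binding, 1 passed in each comparison with MMS. Between TMS and diffMMS 0 passed in limma, with 3 at an unadjusted p under 0.05, and Rbp2 passed without 1100A (-0.25), Rbp7 without 1101A (0.47) and Fabp5 without 1099A (-0.37). Fabp5, which can carry retinoic acid to other nuclear receptors, fell in TMS against MMS (-0.49, standard error 0.127, adjusted p = 0.0228). The call was lost without 858A, 860A, 1100A or 1101A (-0.50 to -0.39), and its other probe set gave -0.67 (adjusted p = 0.00360). Ttr, the plasma partner of the Rbp4 protein, was 0.26 higher in diffMMS than in MMS (adjusted p = 0.0420). That call was lost without 861A, 863A or any MMS array (0.22 to 0.29), and 2 further probe sets gave -0.02 and 0.02. Cyp26a1 was the 1 clearing enzyme measured. It had 7.21, 7.09 and 7.08 in TMS, 7.59, 7.21 and 7.14 in diffMMS, and 7.11, 6.79 and 6.87 in MMS, and rose by 0.39 in diffMMS against MMS (adjusted p = 0.0263). The call was lost without 861A, 859A or 860A (0.25 to 0.36), and the other comparisons did not pass, with 0.20 for TMS minus MMS and -0.19 for TMS minus diffMMS. Of the pair of genes with a DR5, Rarb was thus lowest in diffMMS, whereas Cyp26a1 had its highest mean there.

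Of 16 genes listed for their response to retinoic acid in other settings, 7 were higher and 1 lower in diffMMS than in MMS, 3 were higher and 1 lower in TMS than in MMS, and 2 were higher and 3 lower in TMS than in diffMMS. Between TMS and MMS 2 were higher and 0 lower without 858A or 859A. Lamb1 and Hoxb4, named after their values were seen, count among the genes higher in diffMMS than in MMS, at 0.46 and 0.35. The other probe sets of Lamb1 gave -0.02 and 0.14, and that of Hoxb4 gave 0.15. For TMS minus MMS Lamb1 gave 0.04, but its other probe sets gave -0.74 and -0.48 (adjusted p = 0.0104 and 0.00363 from limma). Cyp26a1, Dhrs3 and Nrip1 also stand in the lists above. Tgm2, a transglutaminase induced by retinoic acid in many cells, had 9.08, 8.84 and 9.20 in TMS, 8.37, 8.15 and 8.51 in diffMMS, and 7.92, 7.74 and 7.89 in MMS. The cultures did not overlap, and Tgm2 was 1.19 higher in TMS than in MMS (standard error 0.113, adjusted p = 4.6e-05), 0.49 higher in diffMMS than in MMS (adjusted p = 0.00578, a call lost with median-centred arrays) and 0.70 higher in TMS than in diffMMS (adjusted p = 8.0e-04). Of its 5 other probe sets 4 ran the same way, and 1438942_x_at gave -0.19, 0.34 and -0.54 in the same comparisons. Bhlhe40, a transcriptional repressor, had 9.11, 8.89 and 9.55 in TMS, 8.07, 8.06 and 8.09 in diffMMS, and 8.86, 8.88 and 8.96 in MMS. Like Rarb it was lowest in diffMMS and highest in 1101A. It was -0.83 in diffMMS against MMS (adjusted p = 5.2e-04) and 1.11 higher in TMS than in diffMMS (adjusted p = 6.4e-05). Rarres2, the gene of the chemokine chemerin, had 7.48, 7.81 and 7.17 in TMS, 8.21, 8.06 and 7.87 in diffMMS, and 7.24, 7.11 and 7.09 in MMS. It rose by 0.90 in diffMMS against MMS (adjusted p = 4.8e-04) and was -0.56 in TMS against diffMMS (adjusted p = 0.0126, or 0.0520 when 861A was left out). Hoxa5, a homeobox gene, was -0.17 in TMS against MMS (adjusted p = 0.0322), and lost that call without any TMS or MMS array (adjusted p = 0.0525 to 0.139).

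**Figure D4:**
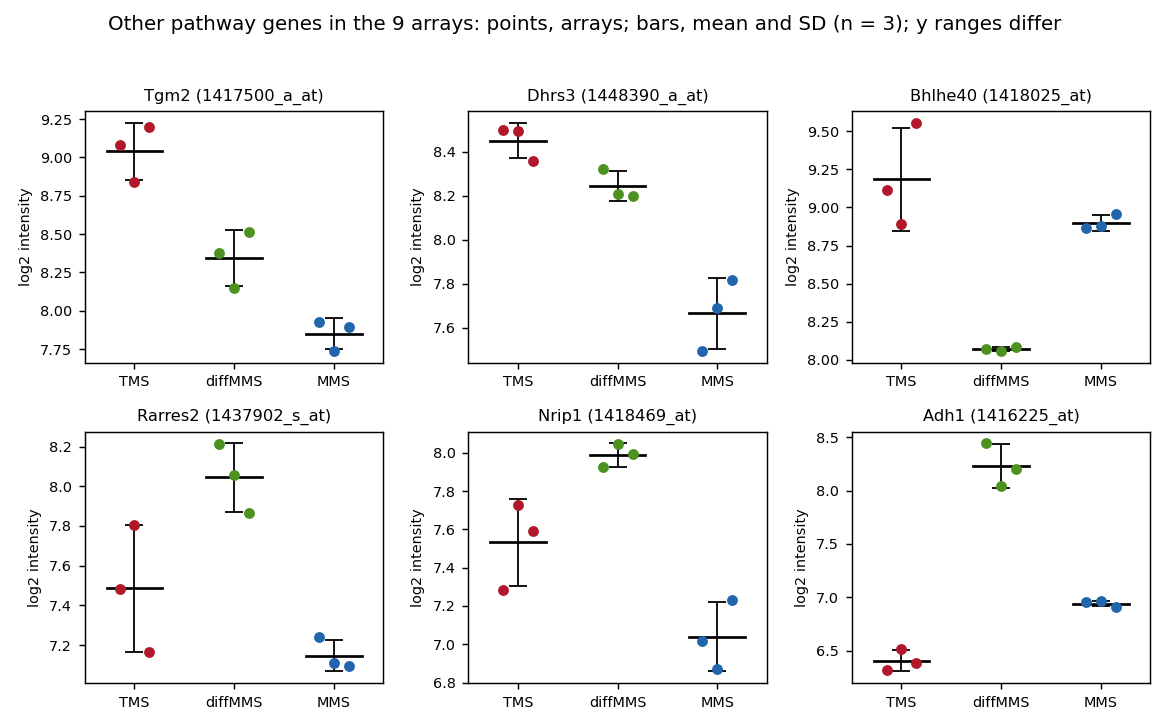
Log2 intensity of Tgm2, Dhrs3, Bhlhe40, Rarres2, Nrip1 and Adh1 in each of the 9 arrays, in TMS, diffMMS and MMS. Points are arrays and bars the mean and SD (n = 3), the y ranges differ, and Tgm2 and Dhrs3 have MMS as the lowest culture while Bhlhe40 has diffMMS.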

How the data were processed

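The authors deposited 1 table of probe set intensity on a linear scale for the 9 MOE430A arrays, already summarised and scaled. GeneSpring is the program the study names, and the summary method is not given in the sources used here. Array medians ran from 84.0 to 88.6. Of 22690 probe sets, 64 are Affymetrix controls. By the platform annotation, 20380 of the other 22626 carry 1 symbol, 691 several and 1555 none. A pseudocount of 8.67 (10% of the overall median) preceded log2, and quantile normalization followed, since quartiles lay up to 0.164 apart between arrays. The limma package (version 3.58.1, R 4.3.3) fitted 1 mean per culture to the 9 arrays, with an intensity trend in eBayes and 6 residual degrees of freedom. Two-sided p values were adjusted over 22626 probe sets by the method of Benjamini-Hochberg, and 0.05 was the threshold. The labels call the populations of each kind independent, without saying whether mammosphere preparations came from different mice. The p values weigh a mean difference against the moderated spread between these preparations, shared by the 3 groups.

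The 9 genes and the lists were chosen with earlier results of these data known. All member probe sets are given, the brightest first. In each pathway list, up to 2 called genes with the strongest rise and up to 2 with the strongest fall are named per comparison, and in any case Rara, Rxra, Rxrb, Fabp5, Rdh10, Dhrs3, Cyp26a1 and Tgm2. On simulated arrays 63 of 100 probe sets changed by 0.5 and 97 of 100 changed by 1 were called between TMS and MMS, and 6 of 22426 unchanged ones. Their noise was independent, with 1 spread per probe set in all groups, and far fewer probe sets were changed than were called in the real arrays. These rates need not hold for the real arrays. Coordinates and promoter windows are those of RefSeq on GRCm38.p6. Tables and figures were made with pandas 2.3.3, numpy 2.4.6 and matplotlib 3.10.9 under Python 3.11.15. The 17 alternatives were the values as deposited, median centring, other pseudocounts, a filter on dim probe sets, other variance models, only the groups compared and each array left out.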

Additional observations from a re-analysis of the deposited data

How the results depend on the processing

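Over 17 alternatives, 572 of the 594 differences of the 12 retinoid probe sets moved by less than 1 SD and 22 moved by more. The filter, the variance models and the fits to only the groups compared leave a difference unchanged. Leaving out 1 of 3 arrays cannot move it by 1 SD. Only other scalings and pseudocounts could do so, and the 572 are therefore no measure of stability. The range for Crabp1 was 3.19 to 3.31 for TMS minus diffMMS and -3.68 to -3.43 for diffMMS minus MMS. Those of other differences were 0.31 to 0.70 for Stra6 (TMS minus MMS) and, for Aldh1a3, 0.20 to 0.31 with 1427395_a_at (TMS minus diffMMS) and 0.23 to 0.50 with 1448789_at (TMS minus MMS). With probe sets below the median left out, 6 of the 12 remained. Leaving out 1 array gave 4 to 7 called retinoid probe sets between TMS and MMS, 7 to 8 between diffMMS and MMS and 7 to 9 between TMS and diffMMS. For the other pathway genes the counts were 3 to 8, 13 to 24 and 8 to 10 in the same comparisons, lowest without MMS arrays in the first and second. Over all probe sets they were 1866 to 4084 between TMS and MMS (1866 without 859A and 1913 without 860A), 5212 to 8353 and 4311 to 5633. With each array centred on its median, 1225 probe sets were higher and 2366 lower in TMS than in MMS, in place of 1471 and 1760, and 2903 higher and 4673 lower in diffMMS than in MMS, in place of 3643 and 3846. The other pathway genes were then 15 higher and 7 lower in diffMMS than in MMS, in place of 19 and 5. The cause of these shifts was not tested. No paired analysis was possible because the labels give no replicate numbers. The number of arrays, 3 in each group, limits the precision, and 6 of the 12 retinoid probe sets lie in the dimmer part of the array.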
